A study of Drosophila melanogaster with 6 samples.

Results

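The genes described here encode proteins of the mitochondrial ribosome of Drosophila melanogaster, measured by RNA-seq in whole lymph glands of larvae in the third instar. They were chosen by symbol alone, as every gene whose FlyBase symbol begins with mRpL or mRpS followed by a digit, which gave 73 of the 17807 genes listed in each library. Of these, 47 carry a large subunit symbol (mRpL) and 26 a small subunit symbol (mRpS). The lymph gland is the larval organ that produces blood cells. All 6 libraries came from wild-type larvae of the stock BL-30140 crossed to w1118, raised on semi-defined medium, and polyadenylated RNA was sequenced. They were prepared by 2 experimenters, with 3 libraries each, called set A and set B. Genotype, tissue and stage were the same in both sets, so the sets measure how far the genes differ between experimenters and between anything that goes with the experimenter. The labels do not say whether the libraries of a set came from separate larvae, so p-values measure only the spread between these libraries.

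Mitochondria translate the few proteins encoded in their own genome on ribosomes that descend from those of bacteria. The ribosomal RNAs of these particles come from mitochondrial DNA, whereas every ribosomal protein in flies is encoded in the nucleus, made in the cytosol and imported. The proteins made by the particle are core subunits of the respiratory chain and of ATP synthase, which are assembled with subunits imported from the cytosol. Some mitochondrial ribosomal proteins have bacterial counterparts and carry their number, and others are found only in mitochondria.

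The total expected count per library ranged from 18689700 to 26003800, and between 7734 and 8236 genes had TPM (a level corrected for transcript length and scaled to the same total in each library) of at least 1. Markers of blood cells fitted the labelled tissue, since all 5 plasmatocyte, all 3 crystal cell and all 3 prohemocyte markers reached TPM 1 in each library. Markers of neighbouring tissues varied between libraries. Their summed TPM ranged from 568 to 1960 for the ring gland (4 of 5 markers detected in each, the fifth not analysed here), from 264 to 1494 for muscle (5 of 5), from 5.47 to 491 for fat body (2 of 4) and from 13.8 to 5031 for salivary gland (2 of 4). The neural markers ranged from 1.37 to 21.6 TPM (1 of 3). In RNA from whole organs, fewer cells of a type and less RNA per cell cannot be told apart.

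All 73 genes reached TPM 1, the minimum for a gene to be called detected, in each of the 6 libraries, and also TPM 5. The mean TPM of single genes ran from 22.015 to 105, a 4.75-fold range, with a median of 41.6. Of the 73, 18 had a mean over 50 TPM, 48 lay between 30 and 50 TPM, and 7 were under 30 TPM. No member was silent, and none belonged to the most abundant messengers of the organ. In each library, 72 or 73 of them lay above the median TPM of the detected protein-coding genes, which was between 20.6 and 22.6, and 0 lay in the top 10% of these genes. Together they held 0.337% ± 0.0133 of all TPM (SD, n = 6). Single values rested on 113 to 2959 expected counts per library, with a median of 474.5.

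**Figure D1:**
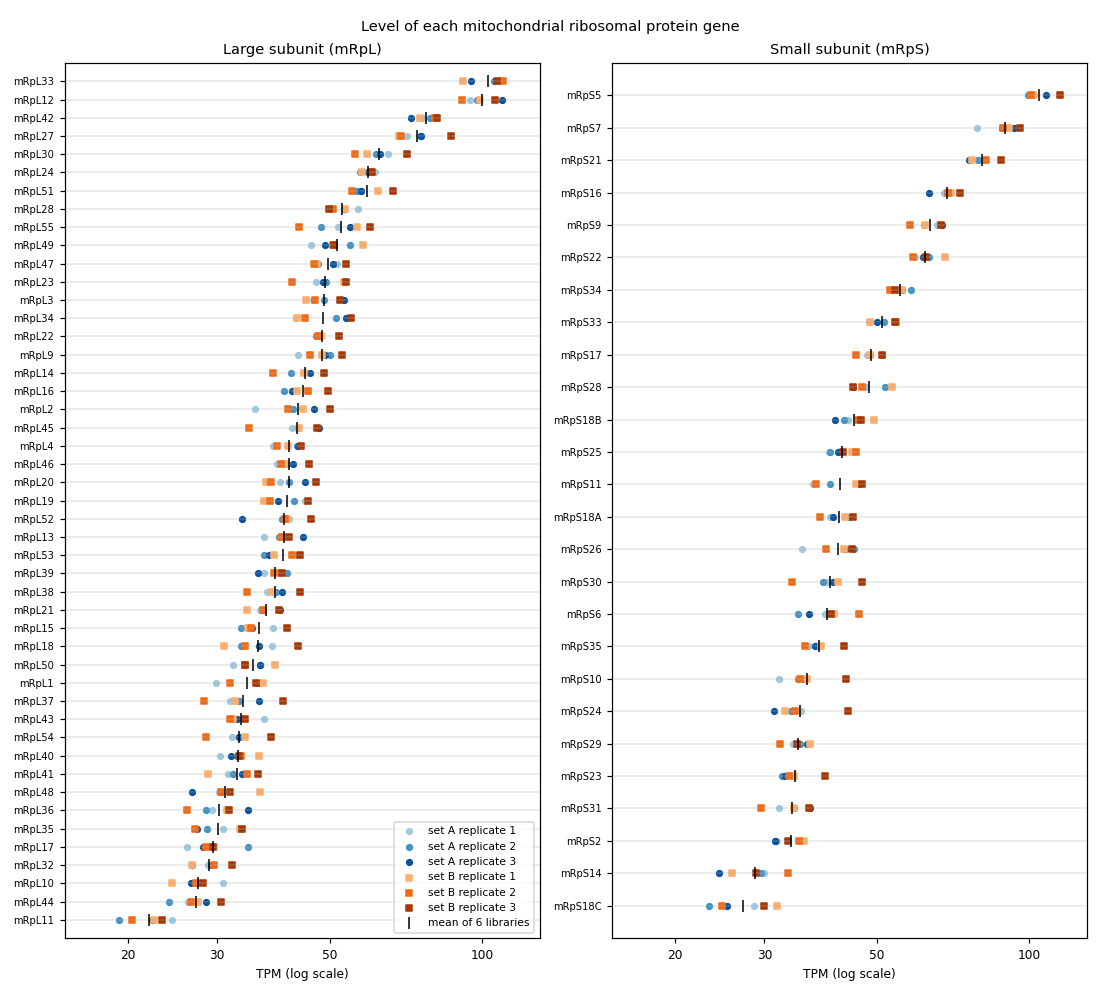
Level of each of the 73 genes (TPM, log scale) in each of the 6 libraries, with large subunit genes on the left and small subunit genes on the right, ordered by mean. Circles are set A, squares are set B, and the vertical bar is the mean of 6 libraries. Means run from 22.015 TPM for mRpL11 to 105 TPM for mRpS5, and the libraries of a gene lie close together against this range.

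The highest level belonged to mRpS5 (FBgn0044510, 3L at 24537236 to 24543534 of BDGP6.54), the counterpart of a bacterial protein at the entry of the messenger into the small subunit. It had 99.5 TPM in its lowest library, a median of 102.0 TPM and 115.3 TPM in its highest. The small large-subunit protein gene mRpL33 (FBgn0040907, X at 4321764 to 4322231) followed, with a lowest level of 91.7, a median of 106 and a highest level of 110 TPM. Its exons cover only 349 nt, and its level rested on 274 to 433 expected counts per library, so it leans on the correction for length. The third was mRpL12 (FBgn0011787, 3L at 8956791 to 8957584), with a lowest level of 91.6, a median of 98.5 and a highest level of 109.5 TPM. These 3 genes overlapped in their ranges and changed places between libraries, with mRpL33 the highest member in 3 libraries, mRpS5 in 2 and mRpL12 in 1.

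Next in order were mRpS7 (FBgn0032236), whose bacterial counterpart organises the head of the small subunit, at 89.5 ± 5.84 TPM (SD, n = 6, as for the levels that follow), and mRpS21 (FBgn0044511) at 80.6 ± 4.27 TPM. Then came mRpL42 (FBgn0033480) at 77.7 ± 3.498 TPM, the only gene among the 10 highest that is numbered as mitochondria-specific. It was followed by mRpL27, whose bacterial counterpart lies beside the peptidyl transferase centre, at 74.5 ± 6.704 TPM. The last of the 10 highest were mRpS16 at 68.7 ± 3.16 TPM, mRpS9 at 63.7 ± 3.59 TPM and mRpL30 at 62.7 ± 5.13 TPM. Of these 10 genes, 5 encode small subunit proteins and 5 encode large subunit proteins. By the annotation, mRpS21, mRpL42, mRpS16, mRpS9 and mRpL30 share exonic bases with a gene on the opposite strand. Counting is not stated to use strand. The deposited posterior SD of the count, a measure of uncertain read assignment, was 0 for each of these 5 genes.

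At the other end stood mRpL11 (FBgn0038234, 3R at 14511838 to 14512691), whose bacterial counterpart forms the base of the stalk. It was the lowest of the 73 genes in all 6 libraries, with a lowest level of 19.2, a median of 22.4 and a highest level of 24.4 TPM. Above it were mRpL44 at 27.2 ± 2.16 TPM, mRpS18C at 27.3 ± 3.304 TPM, mRpL10 at 27.4 ± 2.096 TPM and mRpS14 at 28.7 ± 3.18 TPM. Those 4 genes differed from each other by less than their spread between libraries. All 5 of the lowest genes share exonic bases with a gene on the opposite strand, and the posterior SD of their counts was 0.

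The order of the genes was largely kept from library to library. Across the 73 genes, Spearman's rho of TPM between 2 libraries was between 0.905 and 0.962 over the 15 pairs, with a median of 0.933. These are correlations across genes, given as a description, and the libraries share the gene lengths used to compute TPM. Of the 10 highest genes in each library, 8 were among the 10 highest in every library, and 4 genes were among the 10 lowest in every library. The order of close neighbours is mostly not resolved, since 67 of the 72 pairs of neighbours in the whole ranking by mean differed by less than the larger of their 2 SDs.

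Proteins that work at the same place in the ribosome did not all have messengers at the same level. The stalk, which recruits translation factors to the large subunit, is formed in bacteria by L10, L11 and several copies of L12, while other ribosomal proteins are present singly. The gene for mRpL12 was at 99.9 ± 6.86 TPM, against 27.4 ± 2.096 TPM for mRpL10 and 22.015 ± 1.92 TPM for mRpL11. Within libraries the mRpL12 level was 3.66 ± 0.407 times that of mRpL10 (range 3.07 to 4.12) and 4.56 ± 0.425 times that of mRpL11 (range 3.88 to 5.09). The 3 stalk genes thus nearly spanned the range of all 73. Outside the stalk, mRpS5 and mRpL33 had means of 105 and 103 TPM. Whether messenger level goes with the number of protein copies was not tested. Among genes whose bacterial counterparts lie along or at the end of the exit tunnel, mRpL24 was at 59.6 ± 1.58, mRpL23 at 49.02 ± 4.31 and mRpL22 at 48.4 ± 1.89 TPM. The gene mRpL47, counterpart of bacterial L29 at the tunnel exit, was at 49.6 ± 2.96 TPM, and mRpL4, which in bacteria reaches both the tunnel and the centre of peptide bond formation, at 41.6 ± 2.195 TPM. Of 5 genes for proteins near the peptidyl transferase centre, mRpL27 was the highest at 74.5 TPM and the others (mRpL3, mRpL16, mRpL2 and mRpL4) had means between 41.6 and 48.8 TPM. These groups were put together after the values were seen.

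Flies have 3 genes for proteins related to bacterial S18. The gene mRpS18B (FBgn0032849) was at 45.0 ± 2.85 TPM and mRpS18A (FBgn0051450) at 42.05 ± 2.36 TPM. The third, mRpS18C (FBgn0039765), was lower at 27.3 ± 3.304 TPM, and the ranges of mRpS18A and mRpS18B lay above its whole range. The ratio of mRpS18B to mRpS18C was 1.66 ± 0.149, above 1 in 6 of 6 libraries, and the ratio of mRpS18B to mRpS18A was 1.07 ± 0.0793, above 1 in 5. In mammals the protein of the S18A type is found in the large subunit despite its name, as is the counterpart of mRpS30, which was at 40.4 ± 4.12 TPM here.

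The 2 subunits had nearly the same typical level. The ratio of the median TPM of large subunit genes to that of small subunit genes was 0.970 ± 0.0447 over the 6 libraries, with 2 libraries above 1. As the ratio of geometric means it was 0.921 ± 0.0209, and counting mRpS30 and mRpS18A with the large subunit gave 0.953 ± 0.0633. Genes were also divided by number, with proteins up to L36 and S21 named after bacterial proteins and higher numbers found without them. The 42 bacterial-type genes had a median of the means of 42.9 TPM and the 31 mitochondria-specific genes one of 40.4 TPM. The ratio of their medians was 1.11 ± 0.0400, above 1 in 6 of 6 libraries. It was 1.13 ± 0.0452 when mRpL47, mRpL55 and mRpS24, whose mammalian counterparts are related to bacterial proteins, were moved to the first class. Here and for the gene lists below, each library measures the same genes. The SDs and counts of libraries thus describe repeatability between libraries, not the spread between genes. The classes differed more in width, with bacterial-type means from 22.015 to 105 TPM and mitochondria-specific means from 27.2 to 77.7 TPM.

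Among mitochondria-specific proteins of known function in mammals, mRpS29 is the counterpart of a GTP-binding protein first described in cell death, and its gene was at 34.96 ± 1.704 TPM. The gene mRpL45, whose human counterpart anchors the ribosome to the inner membrane, was at 43.06 ± 4.71 TPM. The gene mRpL44, whose human counterpart has a fold related to ribonuclease III, was the lowest of this class.

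The spread between libraries is given as the coefficient of variation (CV, the SD as a share of the mean) of TPM. Over the 6 libraries it ran from 2.66% to 12.5%, with a median of 7.41%. Among 2712 other protein-coding genes with a mean TPM within the range of the 73, the median CV was 8.64%, and 73.7% had a CV no larger than the largest of the 73. Without set A replicate 1 the medians were 7.66% for the 73 and 7.80% for the others. Without set B replicate 3 they were 6.56% and 8.70%. Counting error alone would give the 73 genes a median CV of 4.54%, against 2.72% for those other genes, whose exons are longer (median 2092.5 nt against 783 nt) and which give more counts at the same TPM. The observed CV was 1.64 times the counting CV in the median for the 73 genes and 3.19 times for the others. This ratio is lower where counting error is larger, so it does not measure how much spread remains beyond counting. Lists of related nuclear genes detected in all libraries had median CVs on both sides of that of the 73 genes. Their median CV was 5.79% for nuclear oxidative phosphorylation subunits and 4.01% for cytosolic ribosomal proteins. It was 6.46% for mitochondrial aminoacyl-tRNA synthetases, 7.57% for mitochondrial genome expression and 8.43% for mitochondrial translation factors. For the 14 genes of the mitochondrial genome detected in all libraries it was 47.4%. The median ratio of observed to counting CV was 8.16 for cytosolic ribosomal proteins and 2.55 for oxidative phosphorylation subunits. It was 2.12 for genome expression, 1.67 for translation factors, 1.57 for synthetases and 33.7 for genes of the mitochondrial genome. These are descriptions of sets of genes, with no test.

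**Figure D2:**
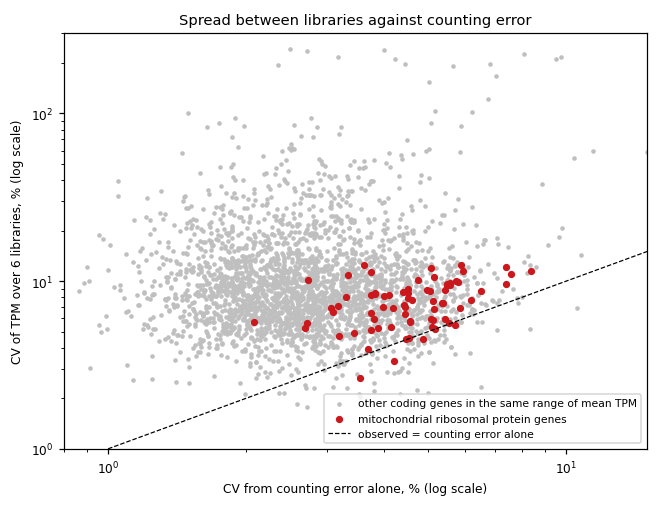
Coefficient of variation of TPM over the 6 libraries against the coefficient that counting error alone would give, both in % on log scales, for the 73 genes (red) and the 2712 other protein-coding genes in the same range of mean TPM (grey). The dashed line marks equality, and 4 of the 73 genes lie on or below it.

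The least variable gene was mRpL24, with a lowest level of 57.5, a median of 59.9 and a highest level of 61.6 TPM and a CV of 2.66%. For mRpS34, a mitochondria-specific small subunit gene, the CV was 3.36%, and for mRpL22 it was 3.91%. The rank of mRpL24 depended on the libraries included. Without set B replicate 3 the least variable gene was mRpL22, with a CV of 0.822%. For mRpL24, mRpS34, mRpL42 and mRpS33 the CV was no larger than counting error alone gives. The most variable gene was mRpS24, with 31.3 TPM in its lowest library, a median of 34.1 TPM, 43.8 TPM in its highest and a CV of 12.5%. Without set B replicate 3 its CV was 4.68%, and the most variable gene was then mRpS18C at 12.7%. With all libraries included, mRpS24 was followed by mRpL37 at a CV of 12.4%, mRpS18C at 12.1%, mRpL18 at 12.03% and mRpL34 at 11.5%. The highest library of mRpS24, mRpL37, mRpL18 and mRpL34 was in each case set B replicate 3. The widest ratio of the highest to the lowest library among the 73 was 1.43, for mRpL37.

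Most of the variation that the genes shared came from set B replicate 3. In that library 66 of the 73 genes lay above their own mean, against 2673 of 7086 other protein-coding genes detected in all libraries. Of the 73, 39 (53.4%) had their highest level of the 6 libraries there, against 10.7% of those other genes, and 1 had its lowest. The median gene stood there at 108% of its own mean, against 95.7% to 100.3% in the other libraries. The summed TPM of the 73 genes was 3295, 3336 and 3364 in set A replicates 1, 2 and 3, and 3364, 3239 and 3624 in those of set B. The lowest of these sums was in set B replicate 2. There 17 of the 73 genes lay above their own mean, against 3595 of the 7086 other protein-coding genes. In the same library 23 of the 73 had their lowest level, a count for which the share of other genes was not taken. Salivary gland markers summed to 5031 TPM in set B replicate 2, against 13.8 to 77.1 TPM elsewhere, with 2 of 4 markers detected in each library and none listed at 0 in all. Ring gland markers summed to 1960 TPM in set A replicate 1 and 1890 TPM in set B replicate 2, the libraries with the lowest sums of the 73 genes, against 568 to 1122 TPM elsewhere. The part of these tissues in the lower sums was not tested.

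**Figure D3:**
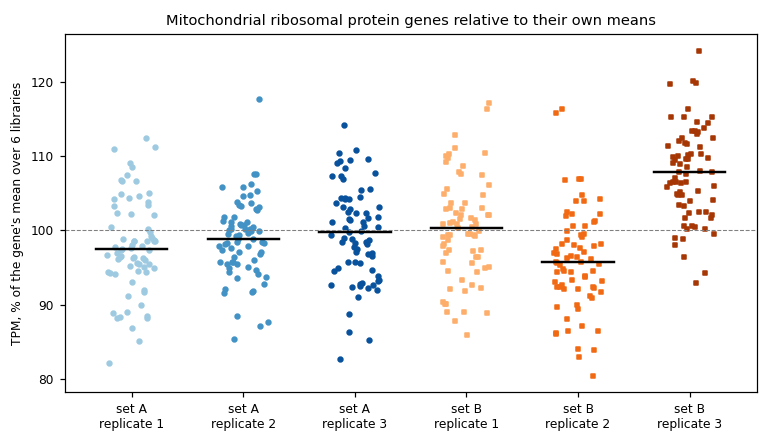
TPM of each of the 73 genes in each library as a percentage of the gene's own mean over the 6 libraries. Points are genes, the black bar is the median and the dashed line marks 100%. The median of set B replicate 3 is 108%, and those of the other libraries lie between 95.7% and 100.3%.

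Genes of the respiratory chain were higher in the same library, and cytosolic ribosomal protein genes were not. Of 64 nuclear genes for subunits of oxidative phosphorylation (OXPHOS) detected in all libraries, 64 lay above their own mean in set B replicate 3 and 53 (82.8%) had their highest level there, with a median of 109% of the own mean. Of 85 cytosolic ribosomal protein genes, 16 lay above their own mean in that library, and their median was 97.6%. In set A replicate 2, 82 of the 85 cytosolic genes and 30 of the 73 mitochondrial ones lay above their own mean, with medians of 105% and 98.9%. Of the 7086 other protein-coding genes, 2026 lay above their own mean there, with a median of 95.2%. In set B replicate 3, 10.7% of these other genes had their highest level, and their median was 97.2% of the own mean. Set B replicate 3 also had the highest share of counts from the mitochondrial genome, at 3.85% against 1.35% to 3.48% elsewhere. Its summed muscle markers were the highest as well, at 1494 TPM against 264 to 656.5 TPM elsewhere, with 5 of 5 markers detected and none at 0. The part of muscle tissue, depth or preparation in these shifts was not tested.

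The ribosomal RNAs of the same particle came from the mitochondrial genome and varied more. The large ribosomal RNA mt:lrRNA had 10412, 16834 and 16100 TPM in set A and 16973, 25780 and 27364 TPM in set B, a 2.63-fold range. Set B replicate 2 was thus the second highest library for this RNA and the lowest for the summed protein genes. The small ribosomal RNA mt:srRNA was listed at 1.36 to 6.39 TPM. Since polyadenylated RNA was selected, these levels are not compared with those of the protein genes.

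Other proteins of the mitochondrial ribosome carry other symbols. The gene tko encodes the counterpart of S12, which keeps decoding accurate, and was at 51.8 ± 2.56 TPM. For bonsai, the counterpart of S15, the level was 47.6 ± 3.04 TPM. For CRIF, whose human counterpart sits in the large subunit and takes part in inserting new proteins into the inner membrane, it was 49.4 ± 2.39 TPM. All 3 lay within the range of the 73 genes but above their typical level, with a ratio of the median of the 73 to that of the 3 of 0.843 ± 0.0399, below 1 in 6 of 6 libraries.

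Translation factors, synthetases and genes for genome expression were mostly lower. The median TPM of the 73 genes was 2.72 ± 0.323 times that of 13 mitochondrial translation factor genes, 4.33 ± 0.442 times that of 15 mitochondrial aminoacyl-tRNA synthetase genes and 2.38 ± 0.0906 times that of 15 genes for replication, transcription and RNA handling in mitochondria. Each ratio was above 1 in 6 of 6 libraries. Single genes departed from this order. The elongation factor gene mEFTu1 was at 120 ± 9.11 TPM, above every mitochondrial ribosomal protein gene in mean level, while the recycling factor gene mRRF2 was at 3.91 ± 0.327 TPM. Among the synthetases, PheRS-m was the highest at 30.5 ± 1.29 TPM and ValRS-m the lowest at 4.34 ± 0.235 TPM. The single-stranded DNA binding protein gene mtSSB was at 112 ± 7.63 TPM and mldr at 6.08 ± 0.234 TPM.

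The 73 genes had lower medians than the 2 larger sets that work beside them, by an amount that depended on the summary. The median TPM of 86 nuclear OXPHOS genes was 2.86 ± 0.0764 times that of the 73 genes. Of these 86, 22 are not detected in all libraries, most with symbols that end in L or L and a digit and mark duplicated genes, and with genes of mean TPM under 1 left out the ratio of the 73 genes to the OXPHOS genes changed from 0.3499 to 0.243. As a ratio of geometric means of TPM + 1 over all 86, it was 0.877. Among those detected in all libraries, ATPsynC was the highest at 1477 ± 160.03 TPM and SdhD the lowest at 73.9 ± 7.75 TPM. The median TPM of 92 cytosolic ribosomal protein genes was 112 ± 6.29 times that of the 73 genes. The ratio of the 73 genes to these was 0.00895 from medians and 0.0217 from geometric means. Their highest was RpL41 at 20428 ± 888 TPM, and RpL10Aa, RpS28a and RpS28-like were listed at 0 in all 6 libraries. No mitochondrial ribosomal protein gene was among the genes listed at 0.

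**Figure D4:**
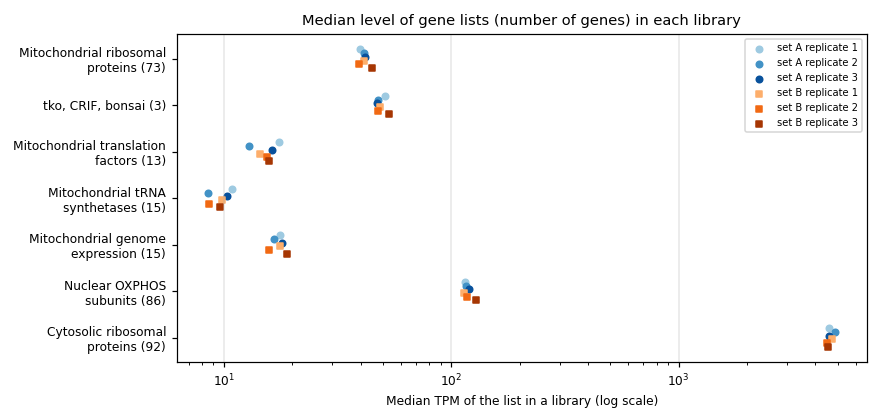
Median TPM (log scale) of each gene list in each library, with the number of genes in brackets. Circles are set A and squares are set B. The median of the 73 mitochondrial ribosomal protein genes lies between 39.3 and 44.9 TPM, above the lists for translation factors, synthetases and genome expression. It lies below those for tko, CRIF and bonsai, OXPHOS subunits and cytosolic ribosomal proteins.

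The comparison of set B with set A addresses the influence of the experimenter on these levels. With edgeR's quasi-likelihood test across 8491 genes, 0 of the 73 had an adjusted p under 0.05, where 0% of all genes tested were called, and DESeq2 called 0 of the 73 against 0.259% of all genes. At an unadjusted p under 0.05 edgeR gave 0 of the 73, against 4.16% of all genes. With 1 library left out the count of the 73 remained 0, while the share of all genes moved to 7.73% without set A replicate 1, 1.83% without set A replicate 3, 2.701% without set B replicate 2 and 6.41% without set B replicate 3. The log2 changes (set B over set A) ran from -0.11 for mRpL10 to 0.16 for mRpS6, with a median of 0.02, and the median over all genes tested was -0.0045. The median SE was 0.11 for the 73 genes and 0.13 for all genes.

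**Figure D5:**
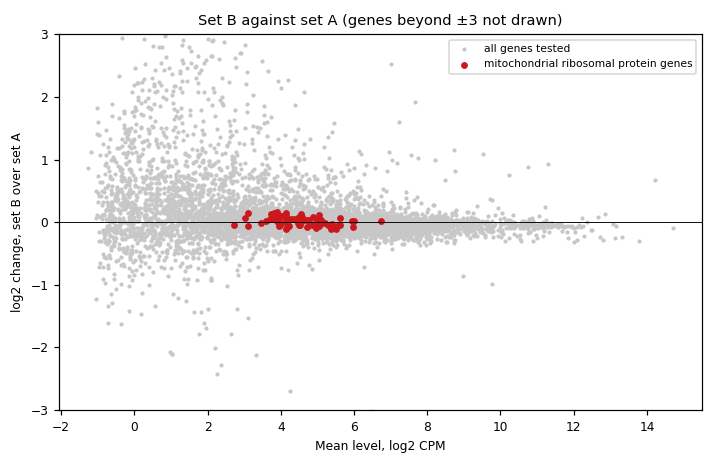
Change between sets (log2, set B over set A, from edgeR) against mean level (log2 CPM) for the 8491 genes tested (grey) and the 73 mitochondrial ribosomal protein genes (red). The 73 genes lie between -0.11 and 0.16, and genes beyond 3 in either direction are not drawn.

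The log2 change was positive for 44 of the 73 genes, where 48.4% of all genes were positive. The direction of this split rested on single libraries. Without set B replicate 3 it was 17 positive and 56 negative, with a median of -0.06, where 45.3% of all genes were positive. Without set A replicate 1 it was 32 and 41 (51.0% of all genes positive). Leaving out each of the other libraries gave between 42 and 58 positive, with 46.6% to 51.2% of all genes positive. With total counts in place of TMM normalization it was 53 and 20, where 59.3% of all genes were positive.

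The 5 genes with the smallest edgeR p were mRpS18B, mRpS6, mRpL28, mRpS25 and mRpL48, and their adjusted p from edgeR was 0.9997 in each case. For mRpS18B the TPM was 43.8, 43.06 and 41.4 in set A and 49.4, 45.9 and 46.5 in set B, and the log2 change was 0.12 (SE 0.075). All set B values lay above all set A values, but the change did not pass the test. For mRpS6 the TPM was 39.5, 34.9 and 36.8 in set A and 41.1, 46.2 and 40.7 in set B, with a log2 change of 0.16 (SE 0.095). For mRpL28, the only one of the 5 with a negative change, the TPM was 57.03, 53.3 and 53.3 in set A and 53.8, 50.8 and 49.98 in set B, with a log2 change of -0.10 (SE 0.063). The sets overlapped for mRpL28. For mRpS25 the TPM was 40.2, 40.4 and 41.96 in set A and 44.7, 45.6 and 42.9 in set B, with a log2 change of 0.10 (SE 0.073). For mRpL48 the log2 change was 0.15 (SE 0.11), with TPM of 30.3, 30.54 and 26.8 in set A and 36.4, 30.47 and 31.8 in set B, so that the sets overlapped.

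Library values did not overlap between sets for 5 of the 73 genes, where 6.11% of all genes tested did not overlap. All 5 (mRpS18B, mRpS6, mRpS25, mRpS16 and mRpL40) were higher in set B, which is 6.85% of the 73 genes against 4.53% of all genes, and 0 were higher in set A, against 1.58% of all genes. For mRpS16 the TPM was 67.9, 68.9 and 63.4 in set A and 69.9, 69.1 and 73.2 in set B. For mRpL40 it was 30.4, 32.9 and 31.99 in set A and 36.4, 33.4 and 33.2 in set B. In both genes the nearest libraries of the sets differed by less than 1 TPM.

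In other lists of mitochondrial genes the same test also called none. Of the nuclear OXPHOS genes 64 were tested, with 0 at an unadjusted edgeR p under 0.05, against 4.16% of all genes tested. Of the mitochondrial translation factors, the synthetases and the genes for mitochondrial genome expression, 13, 15 and 15 were tested, again with 0 in each list. Of 14 genes of the mitochondrial genome tested, 11 had an unadjusted edgeR p under 0.05, all higher in set B, and 0 passed after adjustment. Of the 353 such genes among all tested, 281 were higher in set B. The 11 genes lie on the same genome, so they are not independent results. The share of counts from that genome was 1.35%, 2.21% and 2.08% in set A and 2.25%, 3.48% and 3.85% in set B. Set B replicate 1 was thus close to set A replicate 2.

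The 73 genes share features of size and position that their choice did not use. Their exons covered 327 to 2078 nt, with a median of 783 nt, against a median of 2230.5 nt for 8124 other protein-coding genes tested. For 51 of the 73 (69.9%), a protein-coding gene on the opposite strand starts within 500 nt upstream, so that the pair is transcribed outwards from a shared stretch. The same held for 35.5% of the other protein-coding genes tested, and for 42.3% of those in the same range of mean TPM. Exonic bases were shared with a gene on the opposite strand for 42 of the 73 (57.5%), against 35.9% of the other genes. These shares describe the annotation of release BDGP6.54, with no test.

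The partners of these pairs ranged widely in level. The gene 95 nt from mRpL55 is ATPsynD, a subunit gene of ATP synthase, at 485 ± 28.4 TPM against 52.6 ± 6.03 TPM for mRpL55. The gene 400 nt from mRpS7 is Cdk1, the kinase that drives entry into mitosis, at 63.3 ± 11.5 TPM. The gene 192 nt from mRpL35 is Mitofilin, a protein of the inner membrane folds, at 63.7 ± 4.29 TPM, and the gene 126 nt from mRpL11 is HtrA2, a mitochondrial protease, at 7.38 ± 0.744 TPM. At the other extreme, HLH4C, 457 nt from mRpL30, was at 0.00833 ± 0.0204 TPM, and Kua, 328 nt from mRpS18B, at 0.0217 ± 0.0256 TPM. Of the 51 partners, 46 reached TPM 1 in each library, and the mitochondrial ribosomal protein gene had the higher mean in 36 pairs. These pairs were chosen after their values were seen.

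The genes were spread over the genome, with 12 on 2L, 12 on 2R, 17 on 3L, 21 on 3R, 11 on X and 0 on chromosome 4. The X chromosome held 15.1% of them and 16.6% of the other protein-coding genes tested.

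The assignment of reads was uncertain for few genes. The posterior SD of the count was above 0 for 3 of the 73, namely mRpS5, mRpL13 and mRpL53. For mRpL53 it reached 65.7% of the count, since all 829 nt of its exons also belong to CG33155, and the split of reads between its 40.5 ± 2.83 TPM and the 47.1 ± 4.80 TPM of CG33155 is uncertain. For mRpL13 and mRpS5 it was at most 1.67% and 2.13% of the count.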

How the data were processed

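Polyadenylated RNA of 6 wild-type lymph gland libraries was analysed from the gene tables deposited by the authors. The submitters' processing notes name CASAVA 1.8.2, Trimmomatic 0.35, STAR 2.7.1a, RSEM 1.2.28 and the build BDGP6, with no role or order. Strand use in counting and the annotation are not given in the sources used here. The deposited expected counts are RSEM estimates per gene without normalization. Deposited TPM is scaled by effective length to the same total in each library. The posterior SD of each count is a score in counts, per the file headers.

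Symbols came from Ensembl release 115 (BDGP6.54), 72 of the 73 genes by gene ID and mRpS5 through its transcripts. TPM was summarised over 6 libraries. Set B was compared with set A by edgeR 4.0.16 (quasi-likelihood, R 4.3.3) on the expected counts, after rounding, with its expression filter, which all 73 passed, TMM normalization and Benjamini-Hochberg adjustment over all 8491 genes tested at a threshold of 0.05, with DESeq2 1.42.0 and limma 3.58.1 as alternatives. The CV from counting is the root mean of squared TPM over count, divided by mean TPM, and covers counting error only. Exon overlaps and starts came from the annotation, with the outermost start of each gene. Python 3.11.15, pandas 2.3.3, numpy 2.4.6 and matplotlib 3.10.9 were used.

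Named genes are the 10 highest and 5 lowest by mean TPM, the 5 with the highest and 3 with the lowest CV, the 5 with the smallest edgeR p, the highest and lowest of each other list, and mitoribosome proteins with other symbols. Further genes were named after their values were seen. The members and lists were chosen with earlier results of these data known. No sequence is shown.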

Additional observations from a re-analysis of the deposited data

Results flagged for a closer look

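Over the 6 libraries, 5 of 82 values (73 genes, their summed TPM and 8 ratios of medians) had a library whose gap to its nearest neighbour exceeded Dixon's 95% critical share of the whole range for 6 samples. Chance gives about 1 in 20, or 4.1 of 82, and the values are not independent. In all 5 the library was set B replicate 3, and it was the highest. The summed TPM of the 73 genes was 3624 there and between 3239 and 3364 elsewhere, a gap of 0.676 of the range. For mRpL22 it was 52.1 TPM against 47.1 to 48.1 TPM, a gap of 0.796. For mRpS23, which shares exonic bases with Polr2C on the opposite strand, it was 39.5 TPM against 32.5 to 34.2 TPM, a gap of 0.756. For mRpS24, which shares exonic bases with TBC1d7 on that strand, it was 43.8 TPM against 31.3 to 35.4 TPM, a gap of 0.670. For mRpS10 it was 43.5 TPM against 32.1 to 36.3 TPM, a gap of 0.628. Without this library the mean summed TPM was 3319.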

How the results depend on the processing

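DESeq2 called 22 of 8491 genes between sets where edgeR called 0 (353 at an unadjusted p under 0.05), and neither called any of the 73. With edgeR on other normalizations, no filter, each library left out or the replicate block, and with limma, the count stayed at 0 for all genes. The correlations of same-numbered deviations from the set means were -0.245, -0.335 and 0.356. They were taken across genes, so they cannot decide whether the replicate numbers pair the libraries. The replicate block left 0 calls. Taken as geometric means of TPM + 1, the ratio of large to small subunit genes was 0.921, and the ratio of the 73 genes was 0.0217 to cytosolic ribosomal protein genes, 3.62 to synthetases, 2.07 to genome expression genes and 0.877 to OXPHOS genes. With genes of mean TPM under 1 left out, the last was 0.243. The medians gave 0.970, 0.00895, 4.33, 2.38 and 0.3499. The cause of these shifts was not tested. Leaving out 1 library gave summed TPM of 3319 to 3396. The 353 genes at an unadjusted p under 0.05 became 615 with no filter and 161 to 669 with 1 library left out. As a setting chosen after seeing the data, leaving out set B replicate 3 took the CV of mRpS24 from 12.5% to 4.68% and that of mRpL22 from 3.91% to 0.822%, and the median CV of the 73 from 7.41% to 6.56%. The split of positive and negative log2 changes of the 73 also turned with single libraries, from 44 and 29 to 17 and 56 without that library. Counts started at 113 per gene and library, which limits the precision of the lowest-count genes.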
